A study of Mus musculus with 18 samples.

Results

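N-acetyl-cysteine (NAC), a thiol antioxidant and a precursor of cysteine, was compared with saline after cutting of the sciatic nerve. The comparison used 6 of the 18 sequenced samples, chosen by their labels: the 3 of the group SNA_NAC against the 3 of the group SNA_Saline. Both groups were C57BL/6 mice of 6-8 weeks whose sciatic nerve was injured, 1 in the presence of 30 mM NAC and the other in the presence of saline. The tissue was the dorsal root ganglia (DRG) whose axons run in the sciatic nerve, taken at 24 hours, and each sample pooled the ganglia of 2 mice. The group Sham_Saline, a sham procedure with saline in mice of the same strain and age, gave the level without injury. The labels hold no group that received NAC without injury, and they do not give the route or duration of the NAC exposure. Replicate numbers equal the sequencing lane, and the main test held no term for lane. Its p-values and intervals rest on the spread between pools of different mice, which includes differences between lanes. That spread was estimated over all 18 samples. These also included the groups LAM (laminectomy), DCA (dorsal column axotomy) and Sham_H202 (sham with 13 mM peroxide).

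A DRG holds the cell bodies of sensory neurons, wrapped by satellite glia and mixed with Schwann cells, vessels and resident macrophages. When the peripheral axon is cut, these neurons switch on transcription factors such as Atf3 and Jun, growth-associated proteins and injury peptides, a programme that accompanies axon regrowth. Reactive oxygen species, made in part by the NADPH oxidase NOX2, act as signals after nerve injury, and cells buffer them through glutathione, thioredoxin and peroxiredoxin. NAC feeds glutathione synthesis with cysteine and can itself reduce oxidants, so the injury genes, the antioxidant genes and NOX2 are described first.

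The 3 SNA_NAC libraries held 42435331, 16422972 and 24324103 counts and the 3 SNA_Saline libraries 15390014, 9467654 and 13828476, so every NAC library was deeper than every saline library. Over the whole series the totals ran from 6472476 to 42435331. The DRG label fitted its markers: the 16 neuronal markers summed to 18486 to 20156 CPM (a gene's share of its library's counts, on a fixed total) after TMM scaling in SNA_NAC and 18530 to 19218 in SNA_Saline. Replicates differed by more than counting noise: chi-square divided by its degrees of freedom was 3.98 to 23 between pairs. Across genes, the SD of replicates had a median of 0.141 log2 units in SNA_NAC and 0.183 in SNA_Saline. It was 0.295 in Sham_Saline, which also entered the spread used by the main test.

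No gene passed the test between the groups. Of 15730 genes tested with edgeR's quasi-likelihood test on all 18 samples, 0 were called higher and 0 lower at a Benjamini-Hochberg adjusted p under 0.05 (0.0% in each direction), and the smallest adjusted p was 1.00. DESeq2 and limma on the deposited FPKM values also called 0. At an unadjusted p under 0.05 there were 182 higher genes (1.16%) and 132 lower genes (0.839%), 314 in all where 786.5 would be expected from uniform p-values. The median log2 fold change was -0.0026, and the 5th to 95th percentiles were -0.34 and 0.37. The 95% interval of the fold change lay within 2-fold in both directions for 13695 genes (87.1%) and within 1.5-fold for 8751 (55.6%). Among the 13045 genes with a mean count of at least 50, 12428 (95.3%) had an interval within 2-fold.

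With only the 6 samples in the fit, the common biological coefficient of variation was 11.8%, against 17.4% over all 18. This narrower fit again called 0 genes, and its smallest adjusted p was 0.332. It gave 829 higher (5.38%) and 497 lower genes (3.22%) at an unadjusted p under 0.05, where 770.85 in all would be expected. Adding the replicate number, which is the lane, as a block to the 6-sample fit gave 4 calls by edgeR, 1 higher (0.00649%) and 3 lower (0.0195%), described with the blood-cell genes. The block in the fit of all 18 samples gave 0.

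**Figure D1:**
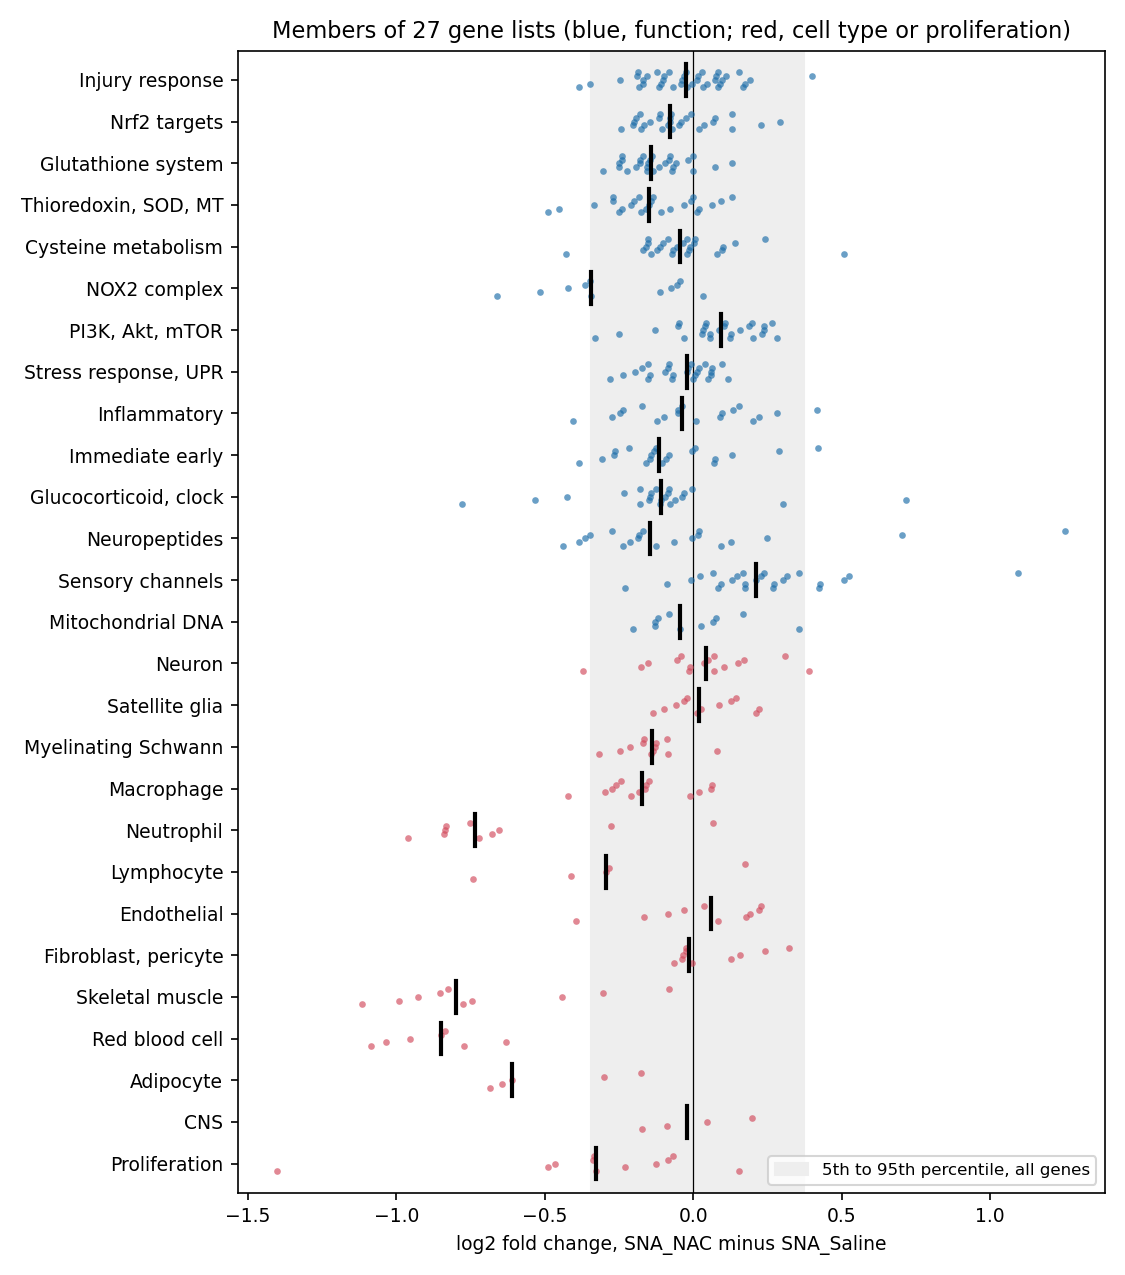
Each point is the log2 fold change (SNA_NAC minus SNA_Saline) of 1 gene, in rows for 27 gene lists, with the list's median as a bar and the 5th to 95th percentiles of all 15730 genes in grey. Most lists lie around 0; the neutrophil, red blood cell, skeletal muscle and adipocyte rows lie to the left and the sensory channel row to the right.

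No gene of the injury programme was called between NAC and saline. Atf3, a transcription factor induced in nearly every axotomized sensory neuron (chr1:191170296-191218039 in mm10), measured 55.9, 72.6 and 59.4 CPM in the Sham_Saline samples. It measured 450, 420 and 462 CPM in SNA_Saline and 478, 452 and 412 CPM in SNA_NAC. The injured groups overlapped and stood far above sham. The log2 fold change of NAC against saline was 0.01 with a 95% interval of -0.35 to 0.38, beside 2.82 for SNA_Saline against Sham_Saline (adjusted p 1.5e-07, edgeR).

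Of the 39 members of an injury-response list in the count table, 0 were called between NAC and saline, and their median log2 fold change was -0.02. No member was higher in all NAC samples than in all saline samples, against 9.24% of all genes; 4 were lower in all NAC samples, against 5.63% of all genes. Of the same 39, 24 were called higher and 0 lower in SNA_Saline against Sham_Saline, where 2.16% and 0.572% of all genes were called. The list was drawn up with that comparison known, so the count is a description of the list. The 95% interval of NAC against saline lay within 2-fold for 35 of the 39.

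Among transcription factors, Jun, a partner of Atf3 in AP-1 complexes, measured 152, 151 and 143 CPM in SNA_Saline and 137, 147 and 137 CPM in SNA_NAC, with a log2 fold change of -0.08 (95% interval -0.33 to 0.17). Sox11, which drives growth genes, had 0.95 to 1.24 CPM in sham, 3.49 to 5.19 in SNA_Saline and 2.87 to 4.63 in SNA_NAC. Smad1, the effector of BMP signals, had 69.0 to 74.7 CPM with saline and 65.4 to 75.6 with NAC. For all of these the NAC and saline samples overlapped.

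Gadd45a, a stress-induced regulator of DNA repair and growth arrest, measured 288, 264 and 241 CPM in SNA_Saline and 222, 250 and 225 in SNA_NAC. Its log2 fold change was -0.19 (95% interval -0.45 to 0.08), against 2.53 for injury. The highest NAC sample lay between saline samples. Sprr1a, a cytoskeletal protein of regenerating axons, had 1.29 to 4.17 CPM in sham, 15.3 to 21 with saline and 15.0 to 21.6 with NAC. Its 95% interval was wide, from -1.06 to 0.81, so it included a 2-fold loss of Sprr1a.

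Signals from injured ganglia to other cells gave intervals that included 0. Csf1, the cytokine by which injured neurons activate microglia and macrophages, measured 62.2, 59.1 and 59.8 CPM with saline and 62.3, 54.7 and 61.0 with NAC (log2 fold change -0.02, 95% interval -0.28 to 0.24). Il6, an injury cytokine, had 0.524 to 0.547 CPM in sham, 3.28 to 4.54 with saline and 3.70 to 4.76 with NAC. Areg, a ligand of the EGF receptor, had 6.27 to 9.5 CPM with saline and 7.26 to 8.42 with NAC. Bdnf, a neurotrophin, had 119 to 125 and 116 to 129 CPM. Each pair of ranges overlapped.

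The 4 list members with all NAC samples below all saline samples did not pass the adjusted test. Npy, a peptide that axotomy induces in large neurons, measured 11.9, 9.73 and 9.55 CPM with saline and 6.83, 9.14 and 8.05 with NAC, a log2 fold change of -0.38 (95% interval -1.18 to 0.41). Nts, which encodes neurotensin, had 25.8 to 33.0 and 21.5 to 24.8 CPM. Gap43, a growth cone protein, had 300.5 to 309 and 261 to 284 CPM, and Stmn4, a microtubule regulator, had 64.1 to 70.3 and 58.4 to 63.8. The NAC levels of Npy and Stmn4 remained above every sham sample, whose highest values were 1.81 and 31.2 CPM. Gap43 had 179 to 264 CPM in sham, so its NAC samples overlapped sham while its saline samples did not. It was not called in SNA_Saline against Sham_Saline (adjusted p 0.097, edgeR).

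**Figure D2:**
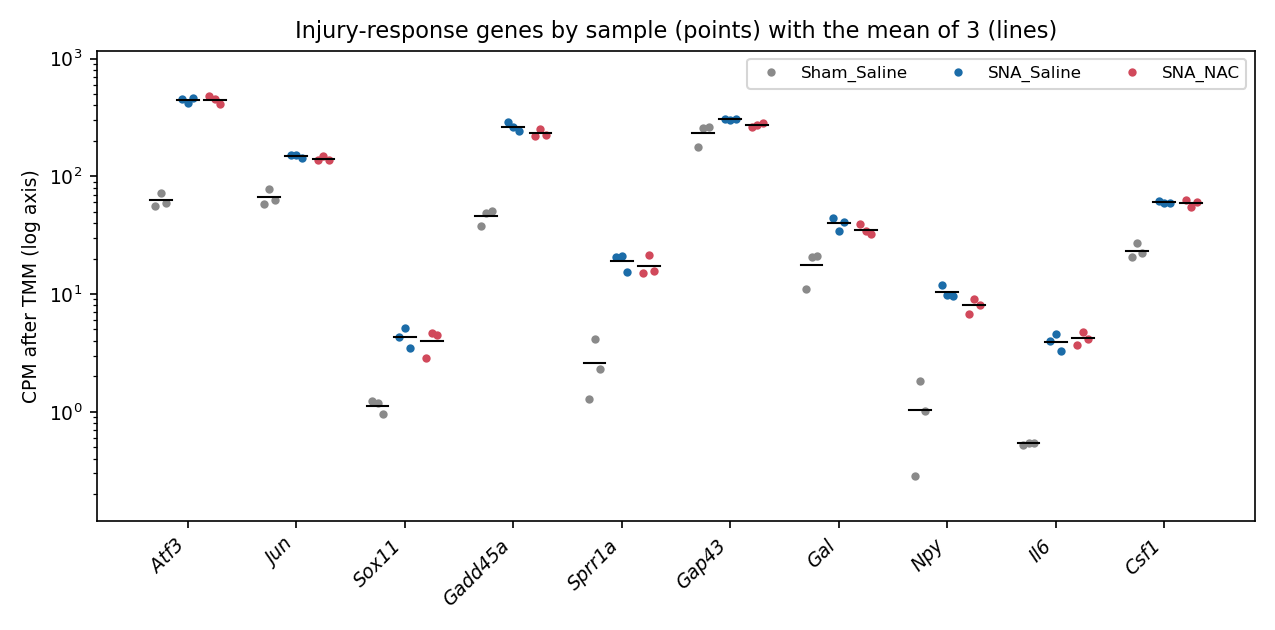
CPM after TMM scaling (log axis) of 10 injury-response genes in each sample of Sham_Saline, SNA_Saline and SNA_NAC; points are samples and lines are means of 3. For Atf3 the saline and NAC points lie between 412 and 478, above the sham points at 55.9 to 72.6.

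Srxn1 encodes sulfiredoxin, which reactivates oxidized peroxiredoxins, and was among the antioxidant genes that axotomy raised. It measured 507, 523 and 534 CPM in sham, 1055, 980 and 972 in SNA_Saline and 1068, 958 and 966 in SNA_NAC. The NAC and saline samples overlapped and stood clear of sham. Its log2 fold change with NAC was -0.01, and the 95% interval of -0.19 to 0.18 was narrow; for injury it was 0.94 (adjusted p 9.7e-06, edgeR).

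Srxn1 and Sprr1a are shown because axotomy raised both and both hold the AP-1 motif more than once before their start. Jun dimers bind this motif. The motif TGAGTCA was searched on both strands (TGACTCA on the other) in the 250 bases before each start of the RefSeq annotation, build GRCm38.p6, and its matches are in capitals. Srxn1 is on the plus strand of chr2:152105274-152105523, with matches that begin 102 and 45 bases before the start. Sprr1a is on the minus strand of chr3:92485882-92486131, with matches 146 and 116 bases before the start.
Srxn1: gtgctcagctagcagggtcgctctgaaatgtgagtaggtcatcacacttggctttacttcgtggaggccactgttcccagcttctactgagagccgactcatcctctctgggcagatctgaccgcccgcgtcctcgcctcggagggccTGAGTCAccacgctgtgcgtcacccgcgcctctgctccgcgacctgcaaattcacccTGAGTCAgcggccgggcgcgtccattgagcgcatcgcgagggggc
Sprr1a: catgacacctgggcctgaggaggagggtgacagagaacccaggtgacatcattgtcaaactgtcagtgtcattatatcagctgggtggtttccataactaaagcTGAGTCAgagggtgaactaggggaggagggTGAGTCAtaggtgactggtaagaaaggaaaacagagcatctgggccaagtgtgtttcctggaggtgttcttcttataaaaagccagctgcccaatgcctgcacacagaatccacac
Of 27025 genes with a promoter sequence, 1395 (5.16%) held the motif and 52 (0.192%) held it more than once. It was found in 5 of the 33 injury-response genes with a sequence and in 4 of the 23 genes with a sequence in a list of Nrf2 and its targets. These matches are letters in a window and were not measured as binding.

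Genes that answer to oxidant stress gave no call. A list of 28 genes held targets of Nrf2, a transcription factor of the oxidant response, with its own gene Nfe2l2 and its inhibitor Keap1. Of these 28, 0 were called, and the median log2 fold change was -0.08. All samples of NAC were higher than all of saline for 3 of the 28 (9.24% over all genes) and lower for 0 (5.63%), so the higher share was near that of all genes. Txnrd1, thioredoxin reductase, was 1 of the 3: it measured 224, 219 and 218 CPM with saline and 242, 246 and 237 with NAC, a log2 fold change of 0.13 (95% interval -0.08 to 0.34). The others were Abcc1, a glutathione-conjugate exporter, at 12.3 to 14.8 and 15.6 to 18.3 CPM, and Aox1, an aldehyde oxidase, at 43.8 to 51.3 and 52.6 to 57.3 CPM.

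Nfe2l2, which encodes Nrf2, measured 95.9, 111 and 87.6 CPM with saline and 89.2, 94.2 and 95.2 with NAC. Keap1, its inhibitor, had 32.9 to 40.1 CPM with saline and 28.7 to 34.3 with NAC. The sentinel targets Nqo1, a quinone reductase, and Hmox1, heme oxygenase 1, had log2 fold changes of -0.07 (95% interval -0.32 to 0.17) and -0.20 (-0.62 to 0.22). For these 4 genes the groups overlapped.

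Glutathione is built from cysteine by glutamate-cysteine ligase, and neither subunit was called. Gclc, the catalytic subunit, measured 50.1, 53.8 and 45 CPM with saline and 54.0, 52.2 and 56.8 with NAC; Gclm, the modifier subunit, had 172 to 199.9 and 188 to 210 CPM. Their log2 fold changes were 0.13 (95% interval -0.17 to 0.43) and 0.07 (-0.19 to 0.34). Slc7a11, the cystine importer, had 4.11 to 6.2 CPM with saline and 2.35 to 6.07 with NAC, with an interval of -0.97 to 0.75.

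Of 28 genes of the glutathione system, 25 had a log2 fold change below 0, with a median of -0.14, 0 were called, and 3 (Glrx5, Gstm5 and Mgst1) were lower in all NAC samples. Over all genes 50.6% had a fold change below 0 and 5.63% were lower in all NAC samples. These were short genes, with a median transcript length of 1615.5 bases against 3292.5 for all genes, and with offsets for GC content and length the median was -0.08. Thioredoxins, peroxiredoxins, superoxide dismutases and metallothioneins gave 20 of 25 below 0, a median of -0.15, 0 called, and a median of -0.09 with the offsets. In that list the median was -0.03 without SNA_Saline replicate 3. Txn1, thioredoxin, had 725 to 747 CPM with saline and 578 to 690 with NAC, and Prdx4, a peroxiredoxin of the endoplasmic reticulum, had 34.1 to 40.3 and 29.2 to 33.9.

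Enzymes that handle NAC or cysteine gave no call. Acy1, the aminoacylase that removes the acetyl group from NAC, measured 3.30, 2.81 and 2.85 CPM with saline and 2.37, 2.13 and 2.16 with NAC. All NAC samples were lower, but the log2 fold change of -0.43 had a 95% interval of -1.0 to 0.15. Of 26 genes of cysteine and methionine handling in the count table, 0 were called, the median was -0.04, and 1 was higher and 1 lower in all NAC samples (9.24% and 5.63% over all genes). The higher one was Mtr, methionine synthase, with 6.77 to 8.97 CPM with saline and 10.4 to 11.7 with NAC. Cth and Cbs, the enzymes of transsulfuration, were outside the count table and had at most 0.538 FPKM in every sample.

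NOX2 is an enzyme of phagocytes: Cybb and Cyba form its membrane core, Ncf1 and Ncf4 are among its cytosolic subunits, and Rac1 or Rac2 is its switch. Rac2 measured 4.68, 4.11 and 5.70 CPM with saline and 3.51, 2.88 and 3.73 with NAC, and Ncf4 had 0.924 to 1.21 and 0.563 to 0.871. Both were among the 3 of 11 members with all NAC samples lower (5.63% over all genes), and none of the 11 passed the adjusted test. Ncf4 levels were low and rest on fewer reads than those of Rac2. Cybb, the catalytic subunit, measured 10.4, 11.5 and 9.69 CPM with saline and 7.18, 9.20 and 12.8 with NAC, so its groups overlapped. The log2 fold changes were -0.52 (95% interval -1.17 to 0.14) for Rac2 and -0.11 (-0.65 to 0.43) for Cybb.

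The median over the 11 NOX2 genes was -0.34 with 10 below 0, and it was -0.17 without SNA_Saline replicate 3. Markers of neutrophils and macrophages, the cells that hold NOX2, also had lower summed levels, with overlap for macrophages. The 10 neutrophil genes summed to 234 to 313 CPM with NAC and 350 to 566 with saline, and the 14 macrophage genes to 190 to 238 and 221 to 265. The part of these cells in the NOX2 values was not tested. Both lists held short genes, with median transcript lengths of 1081.5 and 1273 bases, and the sign of the fold change moved with length, as given below. In bulk samples fewer cells of a type and less RNA per cell cannot be told apart.

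**Figure D3:**
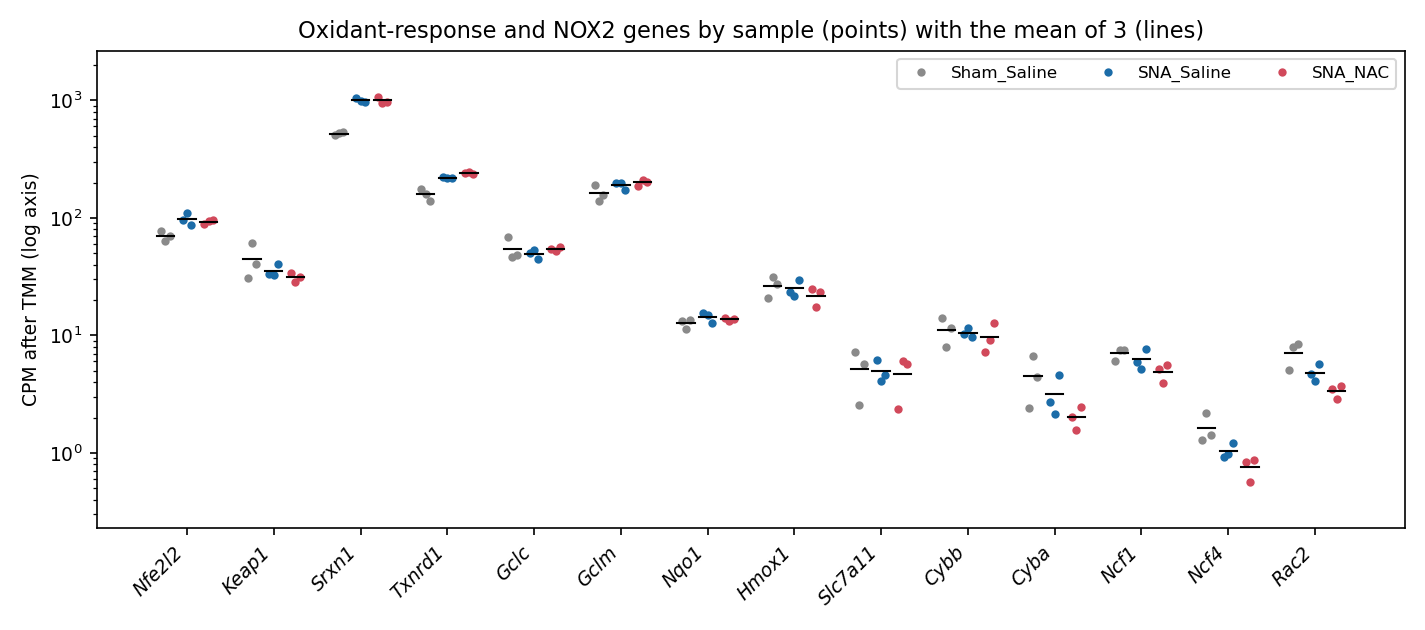
CPM after TMM scaling (log axis) of 14 oxidant-response and NOX2 genes in each sample of Sham_Saline, SNA_Saline and SNA_NAC; points are samples and lines are means of 3. Srxn1 lies at 958 to 1069 CPM in both injured groups and 507 to 534 in sham, and the 3 NAC points of Ncf4 and Rac2 lie below the saline points.

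Transcripts of neutrophils had lower values with NAC, though no gene passed the test over all 18 samples. S100a8, which encodes a chain of calprotectin (chr3:90668978-90670035), measured 138, 115 and 149 CPM with saline and 66.5, 71.1 and 88.4 with NAC. S100a9, its partner (chr3:90692632-90695721), measured 175, 123 and 222 CPM with saline and 92.9, 83.3 and 115 with NAC. Every NAC sample was below every saline sample for both. The log2 fold changes were -0.83 (95% interval -1.52 to -0.14) and -0.84 (-1.49 to -0.19).

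In the 6-sample fit with the replicate block, S100a8 and S100a9 were called lower with adjusted p 0.0116 each (edgeR), and Hbb-bs, a beta globin, with 0.0401. The log2 fold changes there were -0.85, -0.82 and -0.88. The same fit without the block gave adjusted p of 0.332, 0.465 and 0.469. Hbb-bs measured 184, 273 and 464 CPM with saline and 140, 135 and 200 with NAC, so its groups overlapped; it has a near-identical neighbour, Hbb-bt, and reads may be split between them. The fourth call, with adjusted p 0.0116, was Gm26788, a gene without a known role, at 2.38, 1.73 and 1.21 CPM with saline and 6.40, 5.32 and 5.93 with NAC; a sham sample stood higher still, at 14.1.

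Of 10 neutrophil genes, 9 had a fold change below 0, with a median log2 fold change of -0.74, 7 had an unadjusted p under 0.05, and 4 (S100a8, S100a9, Ngp and Retnlg) were lower in all NAC samples. Over all genes 0.839% had such a p and 5.63% were lower in all NAC samples. Ngp and Camp, granule proteins made in immature neutrophils, had 50.8 to 83.3 and 7.13 to 20.7 CPM with saline and 36.7 to 46.2 and 5.51 to 8.13 with NAC. Ltf, lactoferrin, had 22.9 to 42.8 and 15.7 to 25.8 CPM. Ly6g, the surface marker that defines neutrophils, had 0.216 to 0.927 CPM with saline and 0.593 to 0.871 with NAC, and its groups overlapped. Its levels were low and rest on few reads, so the overlap says little.

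Of 7 red blood cell genes, all had a fold change below 0 (50.6% over all genes), with a median of -0.85, and 3 were lower in all NAC samples (5.63% over all genes). Their summed level was 287, 402 and 723 CPM with saline in rank order and 211 to 297 with NAC. Slc4a1, the anion exchanger of the red cell membrane, measured 4.68, 4.76 and 9.27 CPM with saline and 4.53, 3.63 and 2.28 with NAC. Alas2, the heme synthesis enzyme of erythroid cells, had 16.5 to 30.2 and 12.3 to 17.7 CPM. Of the 6 compared samples, the highest summed level of both neutrophil and red cell genes was in SNA_Saline replicate 3, and Sham_Saline replicate 3 stood higher for both. Without SNA_Saline replicate 3 the medians were -0.51 and -0.43.

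SNA_Saline replicate 3 also had the highest summed level of the skeletal muscle list of the 6. The 10 genes of this list summed to 138 to 498 CPM with saline and 135 to 261 with NAC. Pvalb, 1 of the 10, gave 111 of the 138 CPM in SNA_Saline replicate 2 and 142 of the 261 in SNA_NAC replicate 1. It gave 182 of the 498 CPM in SNA_Saline replicate 3. How much of the Pvalb RNA came from muscle was not tested, so the sums are levels of the list only. Of the other members, Myh4 and Mylpf were also highest in SNA_Saline replicate 3, at 36.4 and 39.7 CPM. The list's median log2 fold change was -0.80, and without SNA_Saline replicate 3 it was 0.14. Across the other groups the summed neutrophil level was 352 to 587 CPM in Sham_Saline, 313 to 566 in LAM (laminectomy), 285 to 402 in DCA (dorsal column axotomy) and 241 to 541 in Sham_H202 (sham with 13 mM peroxide). The lowest NAC sample, at 234, was below all 15 samples of the other groups. The highest, at 313.2, was above the lowest LAM (312.8), DCA and Sham_H202 samples and below all Sham_Saline and SNA_Saline samples.

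Prg2 and Hmgb2 were among the lower genes of smallest unadjusted p. Prg2, eosinophil major basic protein, measured 7.98, 8.21 and 14.4 CPM with saline and 4.88, 4.69 and 5.02 with NAC, a log2 fold change of -1.07 (95% interval -1.73 to -0.41). Hmgb2, a chromatin protein of dividing cells, measured 19.2, 18.8 and 18.3 CPM with saline and 11.2, 13.5 and 13.7 with NAC (-0.56, 95% interval -0.88 to -0.23). Both genes had every NAC sample below every saline sample, with unadjusted p of 0.0033 and 0.0021 and adjusted p of 1.00 (edgeR).

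Of 11 proliferation genes, 10 had a fold change below 0, the median was -0.33, and 2 were lower in all NAC samples (5.63% over all genes); the median was -0.15 without SNA_Saline replicate 3. Those 2 were Birc5, survivin, with 4.76 to 6.42 CPM with saline and 3.73 to 4.0 with NAC, and Ccnb2, a mitotic cyclin, with 0.858 to 2.14 and 0.290 to 0.711. Ccnb2 levels were low and rest on fewer reads than those of Birc5. Mki67, the usual marker of cycling cells, had 6.86 to 8.75 and 5.60 to 8.01 CPM, and its groups overlapped. Of macrophage genes, 11 of 14 were below 0, the median was -0.17, and 0 had groups that did not overlap. These were short genes, with a median transcript length of 1273 bases against 3292.5 for all genes. Among the shortest of all genes, with a median length of 1285.5 bases, the median log2 fold change was -0.14 and 22.5% were above 0. Csf1r, the receptor of Csf1, had 17.5 to 25.4 CPM with saline and 18 to 20.2 with NAC.

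**Figure D4:**
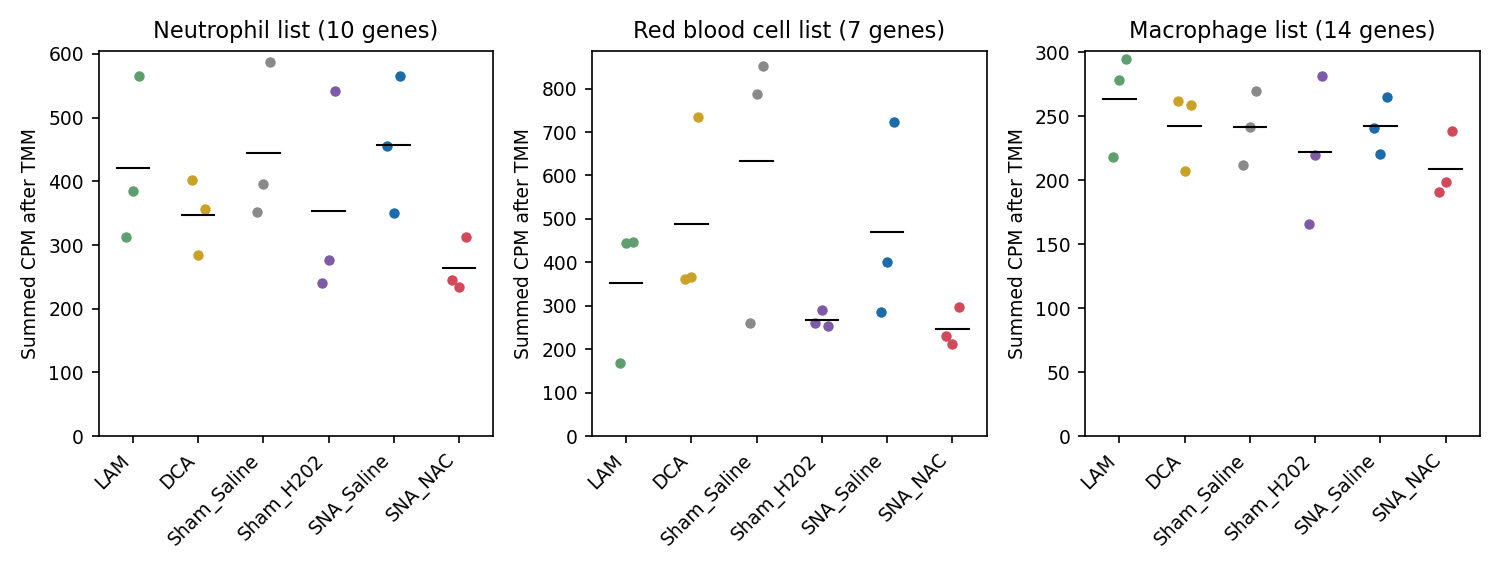
Summed CPM after TMM scaling of the neutrophil (10 genes), red blood cell (7) and macrophage (14) lists in each sample of the 6 groups; points are samples and lines are means of 3. The SNA_NAC points lie at 234 to 313 for neutrophil genes, below the SNA_Saline points at 350 to 566; the lowest of them is below every sample of the other groups.

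Ion channels of sensory neurons had higher values with NAC. Of 25 such genes, 22 had a fold change above 0 (49.4% over all genes), the median log2 fold change was 0.21, and 12 were higher in all NAC samples (9.24% over all genes) while 0 were lower. None was called. Their summed level was 2721 to 2911 CPM with saline and 3214 to 3377 with NAC, so the sums did not overlap.

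Scn1a, a voltage-gated sodium channel, measured 88.6, 100.2 and 73.2 CPM with saline and 116, 117 and 119 with NAC (log2 fold change 0.43, 95% interval -0.10 to 0.95). Scn10a, the sodium channel of nociceptors, had 390 to 449 and 449 to 514 CPM. Trpm8, the cold sensor, measured 16.4, 19.8 and 15.3 CPM with saline and 26.8, 22.9 and 24.1 with NAC (0.52, 95% interval -0.16 to 1.21). Piezo2, the touch channel, had 258 to 300.2 and 323 to 370 CPM. Kcna2, a juxtaparanodal potassium channel, had 9.55 to 19.7 and 23.7 to 34.6 CPM. Trpv1, the capsaicin receptor, had 115 to 118 and 119.8 to 123, and its interval of -0.12 to 0.26 was the narrowest of these.

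Of 20 neuropeptide and peptide receptor genes in the count table, 13 had a fold change below 0 and 7 above, the median was -0.15, and 0 were called. All NAC samples were lower for 5 (25% of the list, 5.63% over all genes) and higher for 3 (15%, 9.24% over all genes), Oprm1 and Oprd1 among these 3. Oprm1, the mu opioid receptor, measured 2.31, 1.73 and 1.28 CPM with saline and 4.48, 3.63 and 4.60 with NAC, a log2 fold change of 1.25 (95% interval 0.06 to 2.45; unadjusted p 0.041, adjusted p 1.00 by edgeR). Oprd1, the delta receptor, had 2.64 to 3.46 and 4.13 to 6.16 CPM. Single sham samples reached 11.2 CPM for Oprm1 and 15.7 for Oprd1, above every NAC sample. Among the 5 lower members, Calca, which encodes CGRP, measured 1719 to 1802 CPM with saline and 1568 to 1648 with NAC, and Tac1, which encodes substance P, had 332 to 357 and 293 to 319. Both had groups that did not overlap and intervals that included 0.

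The sign of the fold change moved with transcript length. Genes were split into 5 equal bins by the longest transcript in the annotation. In the bin of shortest genes, with a median length of 1285.5 bases, the median log2 fold change was -0.14, and 22.5% of genes were above 0. In the bin of longest genes, with a median length of 6709 bases, it was 0.14, and 83.5% were above 0. All NAC samples were higher than all saline samples for 24.1% of the longest bin and 3.32% of the shortest; they were lower for 0.799% and 12.9%.

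The sensory channels were long, with a median of 6692 bases, whereas the neutrophil and red blood cell lists had 1081.5 and 703 and the neuropeptides 1610.5. With offsets for GC content and length, the medians by bin ran from -0.04 to -0.0045. The median of the sensory channels was then 0.09 and that of the neuropeptide list -0.04, while the neutrophil and red cell medians were -0.67 and -0.82. The difference between long and short genes varied within groups as well. The median deviation of the longest bin minus that of the shortest was 0.13, 0.32 and 0.30 log2 units in the NAC samples, -0.02, 0.16 and -0.21 in the saline samples, and -0.44 to 0.49 in Sham_Saline. NAC replicate 1 lay below saline replicate 2, so the groups overlapped in this measure.

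**Figure D5:**
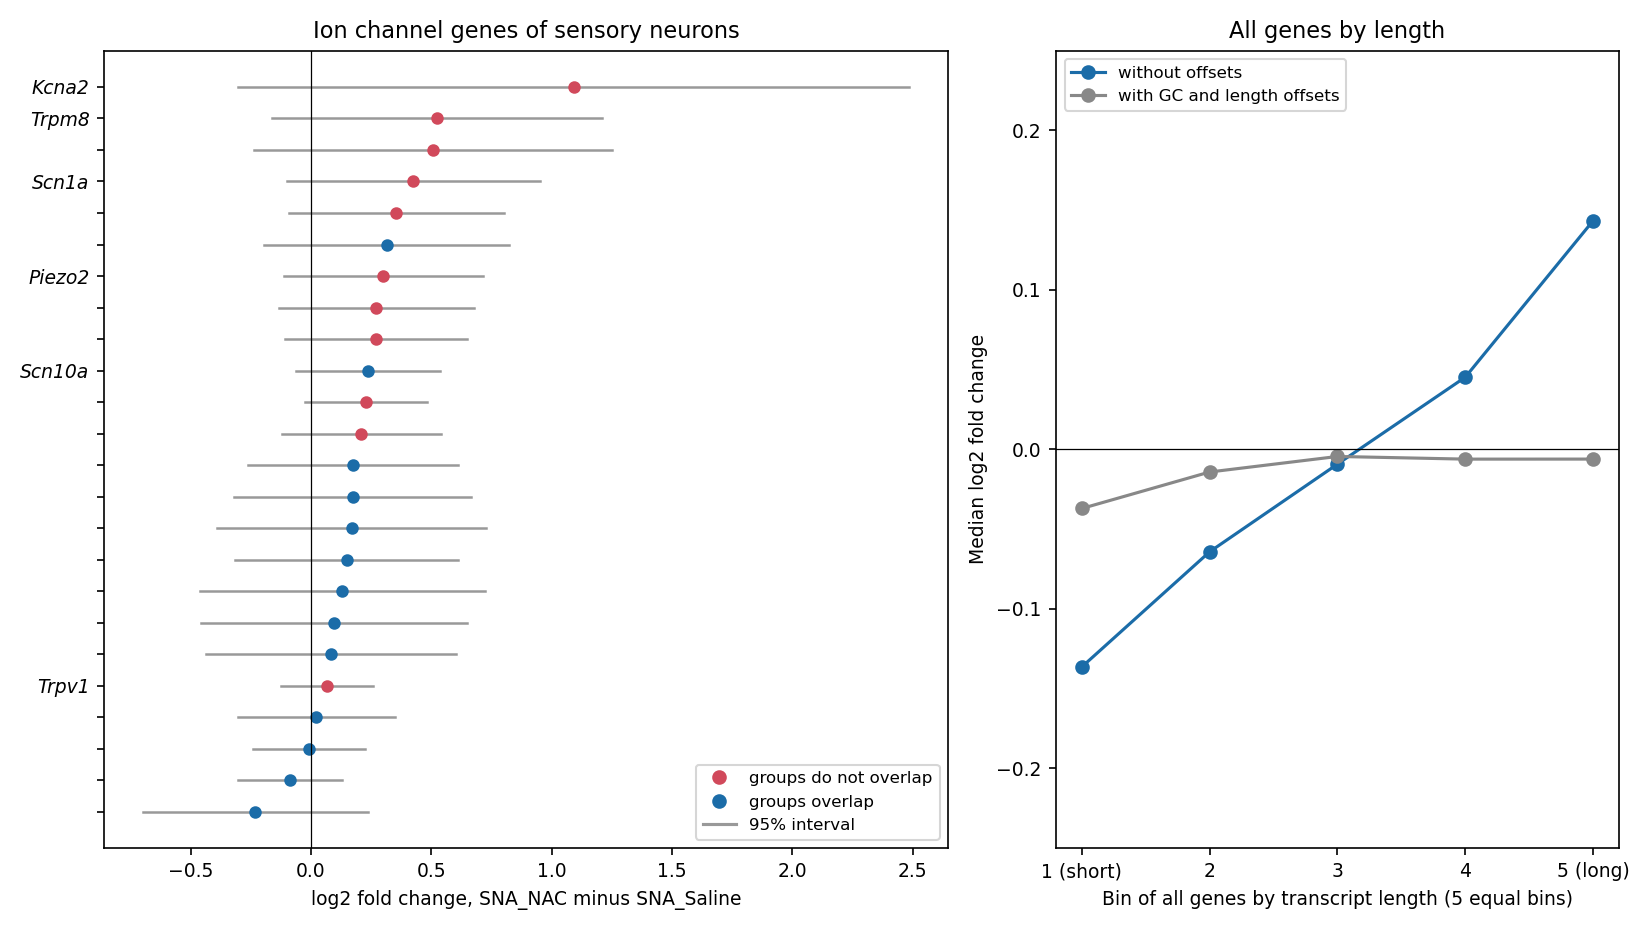
Left, log2 fold change (SNA_NAC minus SNA_Saline) of 24 sensory channel genes with 95% intervals, labelled where their values are given in the text; red points are genes whose NAC samples all exceed the saline samples. Right, median log2 fold change in 5 equal bins of all genes by transcript length, from -0.14 to 0.14 without offsets and near 0 with offsets for GC content and length.

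Growth signalling, stress responses and inflammation gave no call. The 26 genes of the PI3K, Akt and mTOR pathway had a median of 0.09, which was 0.0090 with the GC and length offsets. Of 26 genes of the integrated stress and unfolded protein responses, 0 were called and the median was -0.02. Chac1, a glutathione-degrading enzyme of the stress response, had 6.59 to 9.98 and 6.97 to 8.07 CPM. Of 19 inflammatory genes in the count table the median was -0.04; Ccl2, a monocyte chemokine, had 4.56 to 6.16 and 3.72 to 5.35 CPM. Tnf, Cxcl2 and Ptgs2 were outside the count table and had at most 0.127, 0.0990 and 0.176 FPKM in these 6 samples.

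Among immediate early and clock genes, a few stood out by unadjusted p alone. Of 20 immediate early genes, 14 were below 0 (50.6% over all genes) and 4 were lower in all NAC samples (5.63% over all genes). Of 22 glucocorticoid and clock genes, 20 were below 0. By edgeR, 3 of the 22 were lower and 1 higher at an unadjusted p under 0.05 (0.839% and 1.16% over all genes). Dusp1, a phosphatase that limits MAP kinases, measured 38.3, 36.6 and 31.6 CPM with saline and 28.4, 30.0 and 30.4 with NAC (-0.26, 95% interval -0.50 to -0.02). Arntl, the clock activator also called Bmal1, measured 2.77, 1.95 and 3.56 CPM with saline and 4.95, 4.57 and 4.27 with NAC (0.72, 95% interval 0.12 to 1.31). Dbp, an output gene of the clock that runs opposite to Arntl over the day, measured 16.2, 15.1 and 8.20 CPM with saline and 9.77, 7.32 and 5.72 with NAC (-0.78, 95% interval -1.46 to -0.09). Ciart, a clock repressor, had 2.49 to 3.70 and 1.70 to 2.56 CPM. The groups overlapped for Dbp and Ciart but not for Dusp1 and Arntl. Per1, Per2 and Nr1d1, other core clock genes, had log2 fold changes of -0.04, -0.03 and -0.14 with groups that overlapped. The labels do not give the time of day of dissection. None of these passed the adjusted test.

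Glial and vascular markers gave no call. Of 12 myelinating Schwann cell genes, 11 were below 0 with a median of -0.14, and 4, with Mbp, Pllp and Cldn19 among them, were lower in all NAC samples (5.63% over all genes). The list's median transcript length was 2218 bases, and its median log2 fold change was -0.11 with the GC and length offsets. In the 2 bins of shortest genes, 12.9% and 7.19% were lower in all NAC samples. Mbp, myelin basic protein, measured 1373, 1312 and 1522 CPM with saline and 1263, 1187 and 1176 with NAC (-0.21, 95% interval -0.74 to 0.31). Of 12 satellite glia genes the median was 0.02; Fabp7, a lipid carrier of these cells, had 357 to 417 and 411 to 464 CPM. Of 10 endothelial genes the median was 0.06, and 3 were higher and 0 lower in all NAC samples (9.24% and 5.63% over all genes). Of 11 genes of the mitochondrial genome the median was -0.04.

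Next come the genes of smallest unadjusted p among those averaging 50 or more counts whose groups did not overlap. On the higher side they included Mecom, Gpr123, Yeats2, Sik2, Xxylt1, B930095G15Rik, Zfp955a, Npnt, Lama3, 4930579G18Rik and Itsn1. On the lower side they included Hmgb2, Prg2, Krt27, Zcwpw2, Cstb, Trit1, Fam154b, Cenpl, Ngp, S100a9 and Tmem154. Each of these had an adjusted p of 1.00 (edgeR).

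Mecom, a zinc finger transcription factor (chr3:29951296-30548008), measured 1.91, 1.62 and 2.14 CPM with saline and 3.51, 3.38 and 3.40 with NAC, a log2 fold change of 0.85 (95% interval 0.40 to 1.29, unadjusted p 9.2e-04). Its sham values of 1.63 to 2.29 CPM lay with saline. Sik2, a salt-inducible kinase, had 1.71 to 2.92 and 3.75 to 4.31 CPM. Cstb, an inhibitor of lysosomal cathepsins, measured 42.9, 39.5 and 38.9 CPM with saline and 33.6, 32.4 and 26.0 with NAC (-0.40, 95% interval -0.67 to -0.13). Cenpl, a centromere protein, had 8.48 to 10.2 and 6.47 to 7.57 CPM. The smallest p of all belonged to Gm5581, at 0.198 to 0.432 CPM with saline and 0.747 to 0.996 with NAC, where single libraries held as few as 3 counts.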

How the data were processed

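RNA from 18 samples in 6 groups of 3 was measured by stranded, poly(A)-selected, single-end sequencing, per the labels' protocols. The authors deposited whole-number counts per gene (15730 genes, lowest mean 10.1) and FPKM values for 45904 features. Per the submitters' processing notes, the tools included TopHat2 2.0.12, Bowtie2 2.2.3, SAMtools 0.1.19, HTSeq 0.6.0, edgeR 3.8.6 and limma 3.22.7, with mm10. Whether the counting used strand is not given in the sources used here, so overlapping genes and near-identical copies are uncertain. For 15639 genes the deposited FPKM was the count times 1 factor per gene and 1 per sample, within 0.01 log2 units, so both hold the same reads there.

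The test was edgeR's (4.0.16, R 4.3.3) glmQLFTest after TMM, filterByExpr and glmQLFit, over all 18 samples with no block, with Benjamini-Hochberg adjustment over all genes and a threshold of 0.05. The 95% interval is the log2 fold change plus or minus a t quantile times its standard error, the absolute log2 fold change over the square root of F. With 3 against 3, an exact permutation test cannot go below 0.1. Intervals and p-values treat reads without molecular identifiers as counts. Coordinates and transcript lengths come from GENCODE M21 (GRCm38, the sequence of mm10), with values for 15648 genes, and promoters from RefSeq. The 27 lists (460 genes, 430 in the count table) are described by counts and medians without a test.

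Named genes were, per direction, those with adjusted p under 0.05 or otherwise up to 12 of smallest p among those averaging 50 or more counts whose groups did not overlap; the 3 smallest p of each list; a fixed set of injury, oxidant and NOX2 genes; and the 2 smallest p over all genes. S100a8 and Gm26788 were named after their values were seen, as were further list members whose values are given. Some genes that this rule names are not reported here. The members and lists were chosen with earlier results of these data known.

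Replicate numbers equal the lane in the labels, which pairs the samples by lane. Deviations of same-numbered NAC and saline samples correlated at -0.14, 0.42 and -0.02, with a mean of 0.09. Pairs with different numbers had a mean of -0.04 and ran from -0.48 to 0.51. Deviations were taken from each group's own mean, which ties this mean to that of the same-numbered pairs. It is therefore no separate reference for pairing by lane. The highest correlation was NAC replicate 1 with saline replicate 3, so the strongest match was not within a lane. Data of 15726 genes were simulated with the library sizes of this comparison and the gene-wise spread of the 18-sample fit. The test recovered 100% of genes with a log2 fold change of 2, 68% at 1, 18% at 0.58 and 52% at -1. There were 4 false calls of 123, and 94.9% of the intervals held the true value. The common biological coefficient of variation was 17.4% in that fit and 11.8% in the 6 samples, and the smaller spread was not simulated. Alternatives were DESeq2 1.42.0, upper quartile scaling, other count filters, the 6 samples alone, a replicate block, offsets for GC content and length (natural splines, 5 degrees of freedom), limma 3.58.1 on log2(FPKM + 1) and log2(FPKM + 0.1), each sample left out, and an adjusted p under 0.1. The offsets with only the 6 samples were added after the data were seen. Figures used matplotlib 3.10.9.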

Additional observations from a re-analysis of the deposited data

How the results depend on the processing

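The count of called genes was 0 under every alternative except the 6-sample fit with the replicate block, which gave 4; the block changed no other call. The count at an unadjusted p under 0.05, 314 over all 18 samples, was 1326 with only the 6 samples, 1276 with the 6 samples and the replicate block, 555 with GC and length offsets, 565 with the offsets and the replicate block, and 1777 with the offsets and only the 6 samples. It ran from 196 to 376 with each sample left out, and fell by more than 1.5 times without SNA_Saline replicate 1 (200), SNA_NAC replicate 1 (203) or SNA_NAC replicate 3 (196). Of the medians of the 27 lists, 459 values stayed within 1 SD of replicates and 27 did not. That SD was each list's own, from 0.031 for satellite glia to 1.43 for skeletal muscle, so noisy lists could hardly leave it. The skeletal muscle median ran from -1.27 to 0.14 with each sample left out and still counted as within it. With the offsets alone, with the replicate block and with only the 6 samples, the sensory channel median was 0.093, 0.092 and 0.091, the PI3K and mTOR median 0.0090, 0.0098 and 0.012, and the neuropeptide median -0.041, -0.040 and -0.035. The NOX2 median was -0.23 with at least 10 counts per sample and -0.14 on log2(FPKM + 1), where the adipocyte and proliferation medians were -0.24 and -0.10; the pseudocount shrinks low genes by construction. With each sample left out, medians ran from -0.23 to -0.03 for thioredoxin and peroxiredoxin genes, -0.38 to -0.17 for NOX2, -0.093 to -0.0069 for stress response, -0.031 to 0.072 for inflammatory, 0.19 to 0.27 for sensory channel, 0.011 to 0.091 for neuron, -0.0059 to 0.071 for satellite glia, -0.04 to 0.15 for endothelial, -0.74 to -0.28 for adipocyte, -0.049 to 0.13 for central nervous system and -0.33 to -0.15 for proliferation genes. The share of genes with an interval within 2-fold ran from 80.4% to 83.6% with each sample left out. Where not stated, the cause of a change was not tested. At this depth and at the spread of the 18-sample fit, 1.5-fold changes were mostly missed in simulated data.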

Other observations

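Of the features with deposited FPKM values that were outside the count table, 209 Ensembl genes with a mean of at least 1 FPKM were tested with limma, and 0 were called. Among them 7 had an unadjusted p under 0.05, and the smallest adjusted p was 0.884. Vip, which encodes an injury-induced peptide, was among the genes outside the count table, at 0.0840, 0.137 and 0.140 FPKM with saline and 0.107, 0.0788 and 0.346 with NAC. Egr3, an immediate early gene, had 0.272 to 0.442 FPKM with saline and 0.212 to 0.477 with NAC. Both sets of values overlapped.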
